A study of Homo sapiens with 2 samples.

Results

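DUSP4, DUSP5, DUSP6, SPRY2, SPRY4, SPRED1, SPRED2, PHLDA1, ETV4 and ETV5 were described as a set of genes that are induced by, and mostly restrain, signalling through the kinase ERK. They were taken by symbol from the joint matrix of RNA and open chromatin, where all 10 were found among 36601 gene rows. To these were added the peaks within 2 kb of the interval that the file gives for each gene, 37 of 187920 peaks in all. The cells were 5 established human lines, A549, HCC827, H838, H1975 and H2228, all derived from adenocarcinoma of the lung. They were untreated, obtained from a cell bank and cultured separately in RPMI medium with fetal calf serum and antibiotics until nearly confluent. They were frozen, mixed in equal proportions and captured in 1 tube, from which the larger fraction (80% of the tube) gave 1 RNA library and 1 ATAC library. Each line was thus 1 culture and 1 capture, and differences between lines could not be tested against replicates. All intervals below are exact 95% Poisson intervals, which cover counting error only.

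ERK is the last kinase of the RAS, RAF and MEK cascade, which growth factor receptors such as EGFR switch on and which mutated EGFR keeps active in many lung adenocarcinomas. Active ERK induces its own inhibitors. DUSP phosphatases remove the phosphates from ERK and related kinases, whereas Sprouty and SPRED proteins act higher up, on RAS and RAF. ETV4 and ETV5 are ETS-family transcription factors whose RNA also follows ERK activity, so the whole set is often used as a readout of the pathway.

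The labels do not say which barcode belongs to which line, so barcodes were grouped by marker genes, none of which is among the 10 genes. Of 3298 barcodes, all with both an RNA and an ATAC profile, 2741 passed the filters and the removal of 63 likely doublets, and 2408 of these fell into 5 groups. In the other 333 no group stood out by its marker score, which had to be at least 2 times the next, and they were left out. The A549-like group held 752 barcodes and the HCC827-like group 391, while 461, 532 and 272 barcodes formed groups named here by their leading genes, S100A9, SLC30A8 and DHRS2. All 7 genes of a second A549 list, fibrinogen genes and CPS1 among them, were highest in the A549-like group. Of the 6 genes of a second HCC827 list, 5 were highest in the HCC827-like group, with EGFR at 7700 CPM there (CPM, UMIs of the gene scaled to a common total per group). Of 4 genes for H2228 that were not used for the grouping, 3 were highest in the S100A9 group, but ALK was at 15.8 CPM there and at 16.3 CPM in the HCC827-like group. The 3 genes for H1975 peaked in 3 different groups, so the S100A9, SLC30A8 and DHRS2 groups were not assigned to H838, H1975 or H2228. Clustering on RNA alone or ATAC alone kept 95.8% and 96.2% of the grouped barcodes together. The DHRS2 group was lowest by RNA, at 78.7%, and the S100A9 group was lowest by ATAC, at 85.0%.

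Depth and cell quality differed between the groups. Group totals lay between 5134396 and 9381685 unique molecules (UMIs) of RNA and between 7132741 and 23362725 peak counts. Median mitochondrial shares were 0.432% in the A549-like group, 8.79% in the S100A9 group, 0.424% in the SLC30A8 group, 13.8% in the HCC827-like group and 11.5% in the DHRS2 group. Values split by that share are given below. LCN2, at 10887 CPM in the S100A9 group, was seen in the other groups at 3.24% to 9.37% of that level. Whether this was free RNA in the droplets or expression in those lines was not tested. Of 5 red cell genes, 4 had 0 UMIs and ALAS2 had 7, and the measured genes of the immune, endothelial and fibroblast lists summed to at most 18.2, 94.7 and 159 CPM in any group. The part of these lists in the results below was not tested.

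The promoters of 3 genes are shown, because DUSP6 and PHLDA1 had the widest range of RNA between the groups and SPRED2 the narrowest, and because in each case all 300 bases lie inside the gene's main peak. Of the 10 genes, 6 were matched in the RefSeq promoter table (GRCh38.p14), which runs from 250 bases before to 50 bases after a gene's start. The DUSP6 promoter is chr12:89352452-89352751, that of PHLDA1 is chr12:76031727-76032026 and that of SPRED2 is chr2:65432550-65432849, all on the minus strand and printed 5′ to 3′. Capitals mark the ETS-type motif CCGGAA on either strand.
DUSP6: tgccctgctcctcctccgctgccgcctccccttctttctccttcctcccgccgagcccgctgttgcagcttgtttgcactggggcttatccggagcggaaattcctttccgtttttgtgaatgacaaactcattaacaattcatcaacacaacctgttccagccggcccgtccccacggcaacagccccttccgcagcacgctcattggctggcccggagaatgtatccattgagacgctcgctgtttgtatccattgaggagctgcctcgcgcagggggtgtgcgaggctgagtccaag
PHLDA1: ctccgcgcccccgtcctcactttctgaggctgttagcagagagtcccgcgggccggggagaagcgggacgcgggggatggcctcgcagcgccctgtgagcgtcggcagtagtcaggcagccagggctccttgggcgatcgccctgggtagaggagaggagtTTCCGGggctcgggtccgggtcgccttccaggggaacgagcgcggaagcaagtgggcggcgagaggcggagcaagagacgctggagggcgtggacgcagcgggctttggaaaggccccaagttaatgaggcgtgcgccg
SPRED2: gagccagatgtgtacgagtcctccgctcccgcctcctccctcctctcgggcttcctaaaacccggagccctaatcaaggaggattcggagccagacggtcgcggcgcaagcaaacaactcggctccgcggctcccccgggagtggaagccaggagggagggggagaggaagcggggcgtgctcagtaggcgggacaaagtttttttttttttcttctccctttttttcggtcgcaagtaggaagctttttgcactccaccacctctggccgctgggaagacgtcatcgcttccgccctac
Both strands were searched for 4 motifs. The share of all 35116 promoters in the table that held each was 17.2% for CCGGAA, 7.71% for the AP-1-type motif TGANTCA, 1.85% for the CRE-type motif TGACGTCA and 1.29% for the CArG box. PHLDA1 held 1 CCGGAA, read as TTCCGG on the printed strand, and the DUSP6 and SPRED2 windows printed here held none of the 4. A further SPRED2 promoter outside the main peak, chr2:65366729-65367028, held 2 TGANTCA. The SPRY2 promoter inside its main peak, chr13:80341077-80341376, also held 1 CCGGAA. These matches describe letters in a window and are not evidence of binding.

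Among the phosphatases, DUSP6 differed most between the lines. DUSP6, a cytoplasmic phosphatase with a strong preference for ERK, stood at 9.93 CPM (95% interval 7.40 to 13.1) in the A549-like group, 118 CPM (111 to 125) in the S100A9 group, 2.42 CPM (1.29 to 4.14) in the SLC30A8 group, 20.9 CPM (17.4 to 25.0) in the HCC827-like group and 26.2 CPM (22.6 to 30.1) in the DHRS2 group. The S100A9 group lay far above the others, only the DHRS2 and HCC827-like intervals overlapped, and the SLC30A8 value rested on 13 UMIs. The highest level was 48.8-fold the lowest. Dividing opposite limits of the 2 intervals gave 26.9-fold to 97.1-fold, which is not itself a 95% interval. The SLC30A8 level was no larger a part of the S100A9 level than LCN2's 3.24%, and whether any of it was RNA from other cells was not tested.

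DUSP4, a nuclear phosphatase of ERK and related kinases, had another order. It was at 96.6 CPM (88.3 to 105) in the A549-like group, 89.0 CPM (83.1 to 95.3) in the S100A9 group, 10.8 CPM (8.20 to 14.0) in the SLC30A8 group, 9.94 CPM (7.55 to 12.9) in the HCC827-like group and 30.1 CPM (26.3 to 34.4) in the DHRS2 group. The A549-like and S100A9 groups were high with overlapping intervals, and the SLC30A8 and HCC827-like groups were low with overlapping intervals. DUSP5, a nuclear phosphatase specific for ERK, stood at 42.8 CPM in the A549-like group, 30.9 CPM in the S100A9 group, 9.87 CPM in the SLC30A8 group, 8.57 CPM in the HCC827-like group and 16.4 CPM in the DHRS2 group. Its order was that of DUSP4, and only the SLC30A8 and HCC827-like intervals overlapped. The highest over the lowest level was 9.72-fold for DUSP4 and 5.00-fold for DUSP5.

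The Sprouty genes, whose products block signalling from receptors to RAS and RAF, were lowest in the SLC30A8 group. SPRY2 was at 11.3 CPM (8.58 to 14.6) in the A549-like group, 20.0 CPM (17.3 to 23.1) in the S100A9 group, 3.54 CPM (2.13 to 5.52) in the SLC30A8 group, 22.1 CPM (18.5 to 26.3) in the HCC827-like group and 11.2 CPM (8.93 to 13.9) in the DHRS2 group. It was the only 1 of the 10 genes that was highest in the HCC827-like group, though that interval overlapped the interval of the S100A9 group. SPRY4 was at 13.8 CPM in the A549-like group, 22.7 CPM in the S100A9 group, 2.79 CPM in the SLC30A8 group, 5.14 CPM in the HCC827-like group and 10.8 CPM in the DHRS2 group. The intervals of its low pair, the SLC30A8 and HCC827-like groups, overlapped, as did those of the A549-like and DHRS2 groups. SPRY4-AS1, which overlaps SPRY4, ran at 71.3, 59.2, 5.96, 31.9 and 41.1 CPM in the A549-like, S100A9, SLC30A8, HCC827-like and DHRS2 groups. Whether reads were counted by strand is not given in the sources used here. The pair were counted separately, and whether either count holds reads of the other gene was not tested.

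The SPRED genes, which carry neurofibromin to the membrane to switch off RAS, varied least. SPRED1 was at 147 CPM in the A549-like group, 171 CPM in the S100A9 group, 81.2 CPM in the SLC30A8 group, 108 CPM in the HCC827-like group and 102 CPM in the DHRS2 group, the last pair with overlapping intervals. SPRED2 was at 152 CPM (142 to 163), 99.3 CPM (93.1 to 106), 132 CPM (123 to 142), 107 CPM (98.4 to 115) and 111 CPM (104 to 119) in the same groups. The ranges were 2.10-fold and 1.53-fold, and SPRED2 was the only gene of the set with its lowest level in the S100A9 group, where the interval overlapped those of the HCC827-like and DHRS2 groups. In barcodes under 2% mitochondrial UMIs SPRED2 was at 167 CPM (123 to 221) in the S100A9 group, from 48 UMIs. It was lowest there in the HCC827-like group, at 115 CPM (83.5 to 155), from 43 UMIs. These 2 intervals overlapped, so the order of the 2 groups was not resolved in that class. The SD of log2 CPM over the 5 groups was 0.43 for SPRED1 and 0.25 for SPRED2, below the median of 0.61 over all measured genes, while the other 8 genes lay between 0.76 and 1.88.

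PHLDA1, a pleckstrin homology domain protein whose RNA is induced by ERK, had the pattern nearest to that of DUSP6. It was at 49.7 CPM (43.8 to 56.1) in the A549-like group, 224 CPM (215 to 234) in the S100A9 group, 10.4 CPM (7.88 to 13.5) in the SLC30A8 group, 62.7 CPM (56.5 to 69.5) in the HCC827-like group and 72.5 CPM (66.4 to 78.9) in the DHRS2 group. The S100A9 group was highest and the SLC30A8 group lowest, 21.5-fold apart, and only the DHRS2 and HCC827-like intervals overlapped. SAA2, another gene of the S100A9 group, was seen in the SLC30A8 group at 4.37% of its level, and the part of RNA from other cells in the low PHLDA1 value was not tested.

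The ETV factors differed from each other. ETV4 was at 28.4 CPM (24.0 to 33.4) in the A549-like group, 17.4 CPM (14.8 to 20.3) in the S100A9 group, 5.96 CPM in the SLC30A8 group, 5.31 CPM in the HCC827-like group and 5.48 CPM in the DHRS2 group, the last 3 with overlapping intervals. ETV5 was at 42.7 CPM (37.2 to 48.7) in the A549-like group, 104 CPM (98.0 to 111) in the S100A9 group, 43.6 CPM (38.2 to 49.5) in the SLC30A8 group, 23.8 CPM (20.0 to 28.1) in the HCC827-like group and 37.4 CPM (33.1 to 42.1) in the DHRS2 group. ETV4 was highest in the A549-like group and ETV5 in the S100A9 group. In the SLC30A8 group, where 7 of the 10 genes were low, ETV5 overlapped the A549-like and DHRS2 groups.

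**Figure D1:**
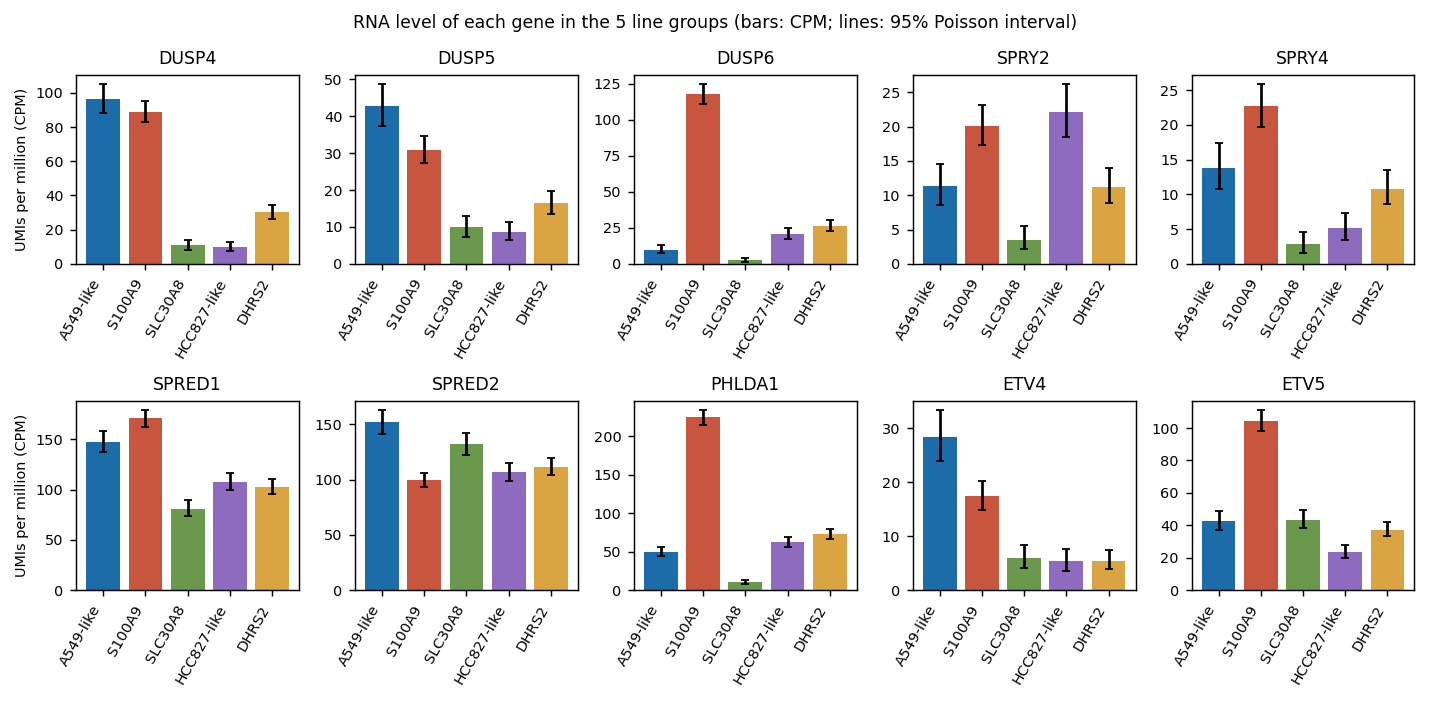
RNA level of each of the 10 genes (bars, CPM, each panel with its own linear axis from 0) in the 5 line groups, with exact 95% Poisson intervals as lines. DUSP6 and PHLDA1 are highest in the S100A9 group, at 118 and 224 CPM, and lowest in the SLC30A8 group, at 2.42 and 10.4 CPM.

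Each group was then set against the mean of the other 4, as the log2 of (CPM + 1) over (mean CPM of the others + 1), and called higher or lower at 2-fold among the 20024 genes with at least 20 UMIs. In the A549-like group 3 of the 10 genes were higher (DUSP4, DUSP5 and ETV4), where 11.3% of all genes were, and DUSP6 was lower, where 15.9% were. In the S100A9 group 5 were higher (DUSP4, DUSP6, SPRY4, PHLDA1 and ETV5) against 8.69% of all genes, and 0 were lower against 17.4%. In the SLC30A8 group 0 were higher against 12.5%, and all but SPRED1, SPRED2 and ETV5, 7 genes, were lower against 20.0%. In the HCC827-like group 0 were higher against 6.73%, and DUSP4, DUSP5, SPRY4, ETV4 and ETV5 were lower against 18.4%. In the DHRS2 group 0 were higher against 5.41%, and ETV4 was lower against 11.3%.

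The median log2 ratio of the 10 genes was 0.37 in the A549-like group, 0.97 in the S100A9 group, -1.57 in the SLC30A8 group, -1.01 in the HCC827-like group and -0.39 in the DHRS2 group. Over all measured genes it was -0.03, -0.24, -0.04, -0.32 and -0.15 in that order. The largest ratios were those of DUSP6, at 2.91 in the S100A9 group and -3.71 in the SLC30A8 group, and of PHLDA1, at 2.18 and -3.18. The A549-like group was not uniformly high: DUSP4 stood at 1.44 and DUSP6 at -1.97. Several calls lay near the threshold. ETV4 in the DHRS2 group was -0.60 with ATAC clusters, ETV5 in the HCC827-like group was -0.90 with RNA clusters, and DUSP4 in the S100A9 group was 0.96 with RNA clusters.

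**Figure D2:**
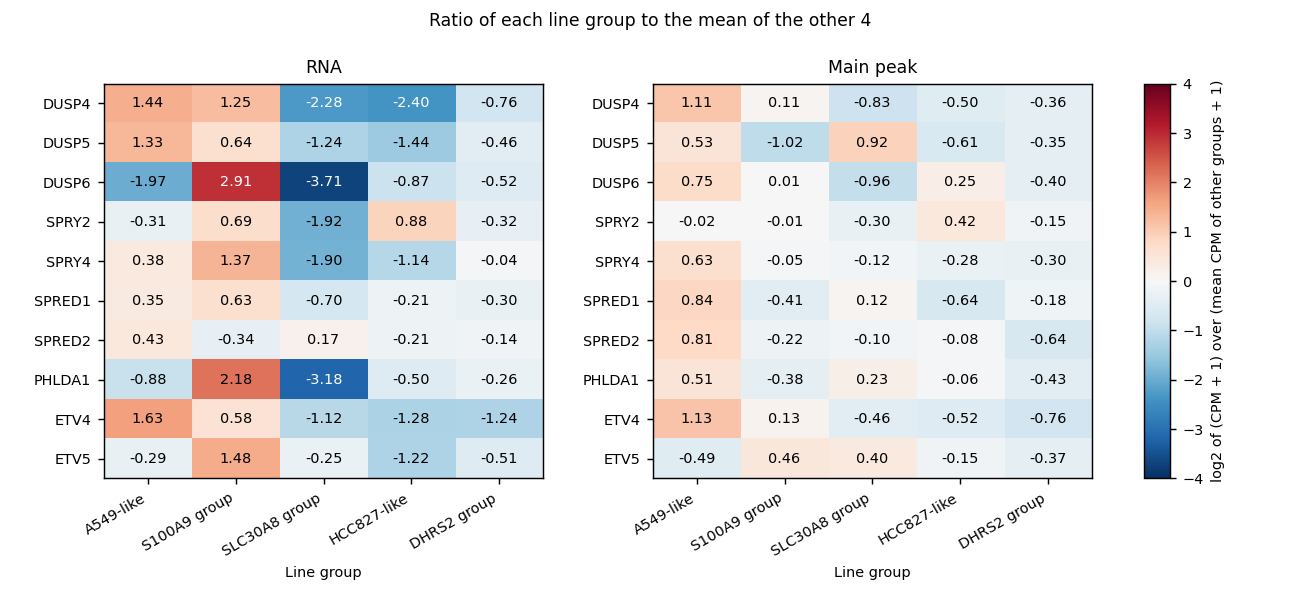
Log2 ratio of each line group to the mean of the other 4, for RNA (left) and for the main peak (right) of the 10 genes, on 1 colour scale. RNA ratios reach -3.71 and main peak ratios at most 1.13 in size.

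Within the set, the smallest root mean square difference between centred log2 patterns was that of DUSP5 and ETV4 (0.32), followed by DUSP6 and PHLDA1 (0.42). Among up to 9603 genes with at least 500 UMIs, those most like DUSP6 over the 5 groups were DMGDH and HLA-F (0.21 each), and those most like PHLDA1 were SKAP1 (0.25) and GDF15 (0.28). SPRY4 lay nearest to HES1 (0.13) and PLK2 (0.14), ETV4 to GCLC (0.09) and GSR (0.21), and ETV5 to VPS28 (0.10) and SGK1 (0.12). DUSP4 lay nearest to AC048341.1 (0.36) and ERN1 (0.39), DUSP5 to ADAM32 (0.18) and RFK (0.19), and SPRY2 to AC092821.3 and GDPD1 (0.17 each). SPRED1 lay nearest to ERAP1 (0.04) and UBLCP1 (0.05), and SPRED2 to ENTR1 and GTF2A2 (0.03 each). With 5 groups of 1 library such likeness is a description.

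Cells within a group were compared after thinning each barcode to 2000 UMIs. At least 1 DUSP6 UMI was then seen in 2.23% of A549-like barcodes, 18.1% of S100A9 barcodes (14.6 to 21.9, exact binomial), 0.190% of SLC30A8 barcodes, 4.35% of HCC827-like barcodes and 3.70% of DHRS2 barcodes. Without thinning the shares were 5.45%, 69.0%, 1.13%, 22.8% and 24.3% in the same groups. Thinning left out 35, 7, 6, 0 and 2 shallower barcodes. The thinned share for PHLDA1 was 9.62% in the A549-like group, 32.6% in the S100A9 group, 1.90% in the SLC30A8 group, 9.97% in the HCC827-like group and 9.63% in the DHRS2 group. Without thinning the PHLDA1 shares were 22.6%, 80.0%, 8.27%, 41.7% and 52.2%. Both genes had the S100A9 group highest and the SLC30A8 group lowest at equal depth.

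Within groups, barcodes under 2% mitochondrial UMIs were set against those with at least 5%, a split chosen after seeing the data. Under 2%, DUSP6 was at 10.1 CPM in the A549-like group, 146 in the S100A9 group, 1.69 in the SLC30A8 group, 24.2 in the HCC827-like group and 14.9 in the DHRS2 group. At 5% or more it was at 9.53, 117, 3.44, 20.4 and 27.4 CPM, so its highest and lowest groups were the same in both. With no count over all measured genes to set beside it, 10 of 50 gene and group pairs had intervals apart. SPRED2 gave 4 of these: it was at 166 CPM under 2% and 127 CPM at 5% or more in the A549-like group, at 167 and 96.6 in the S100A9 group, at 154 and 116 in the SLC30A8 group, and at 172 and 106 in the DHRS2 group. SPRY4 differed most, with 19.2 CPM under 2% and 4.77 CPM at 5% or more in the A549-like group. At 5% or more, the calls of DUSP5 in the A549-like and SLC30A8 groups (0.90 and -0.78), of SPRY4 in the HCC827-like group (-0.73) and of ETV4 in the HCC827-like and DHRS2 groups (-0.89 and -0.94) no longer reached 2-fold.

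**Figure D3:**
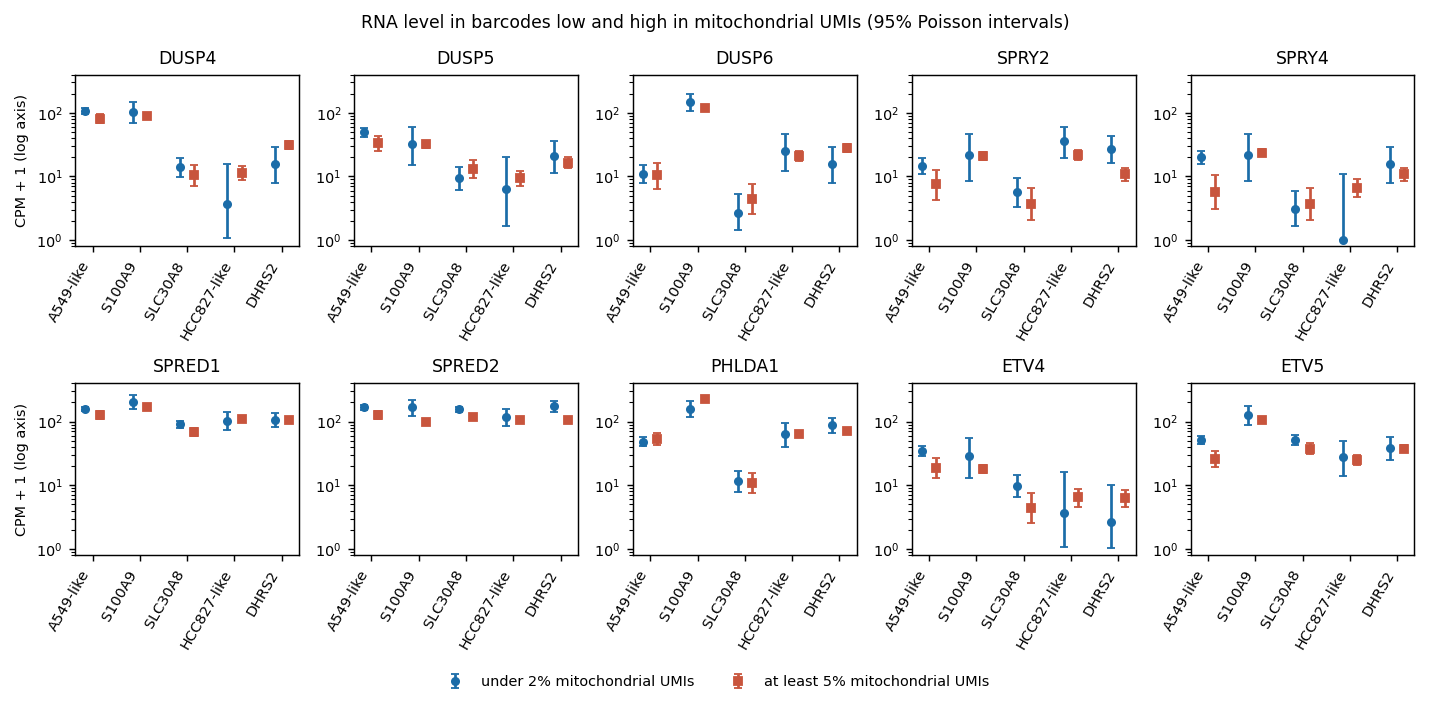
RNA level (CPM + 1, log axis) of the 10 genes by line group in barcodes under 2% mitochondrial UMIs (circles) and in those with at least 5% (squares), with 95% Poisson intervals. DUSP6 in the S100A9 group is at 146 and 117 CPM in the 2 classes, and SPRED2 is higher under 2% in 4 groups whose intervals lie apart.

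The main peak varied less than the RNA for 8 of the 10 genes. The exceptions were SPRED1, at 2.31-fold for the peak and 2.10-fold for RNA, and SPRED2, at 2.25-fold and 1.53-fold. The main peak, the 1 with the most counts, overlapped the gene's interval for all but SPRED1. For DUSP6 (chr12:89352158-89353000, holding the promoter printed above) it stood at 53.0 CPM of all peak counts (48.9 to 57.4) in the A549-like group, 35.8 (32.4 to 39.4) in the S100A9 group, 19.8 (16.3 to 23.8) in the SLC30A8 group, 40.9 (34.6 to 48.1) in the HCC827-like group and 28.1 (24.4 to 32.1) in the DHRS2 group. The A549-like group, lower in DUSP6 RNA than all but the SLC30A8 group, was highest here. For PHLDA1 (chr12:76031257-76032158) the values were 62.2 in the A549-like group, 37.8 in the S100A9 group, 53.5 in the SLC30A8 group, 45.6 in the HCC827-like group and 36.6 in the DHRS2 group. Its RNA was highest in the S100A9 group, where the peak interval overlapped those of the DHRS2 and HCC827-like groups and lay below those of the A549-like and SLC30A8 groups.

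The main peak of ETV4 (chr17:43546049-43546697) followed its RNA, at 61.1 in the A549-like group, 36.6 in the S100A9 group, 26.0 in the SLC30A8 group, 25.0 in the HCC827-like group and 21.5 in the DHRS2 group. That of DUSP4 was at 69.6, 41.8, 23.9, 29.3 and 31.8 in the same order. DUSP5 had the widest main peak range, 3.01-fold, with 61.3 in the A549-like group, 24.8 in the S100A9 group, 74.7 in the SLC30A8 group, 32.1 in the HCC827-like group and 37.5 in the DHRS2 group. Its RNA was low in the SLC30A8 group, where its peak was highest. For ETV5 the peak was at 68.8, 117, 114, 84.3 and 74.1. Over the 5 groups, Pearson's r between RNA and main peak was 0.96 for ETV4, 0.87 for DUSP4, 0.37 for DUSP6, -0.07 for DUSP5 and -0.63 for PHLDA1, values that share the same barcodes.

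Of 50 gene and group pairs, 37 had the same sign in RNA and main peak. That share was not counted over other genes, and the ratios of a gene over the groups depend on each other. Of the same 50 pairs, 22 passed 2-fold in RNA and 3 in the main peak. The 3 were DUSP4 (1.11) and ETV4 (1.13) in the A549-like group and DUSP5 (-1.02) in the S100A9 group. None of the 3 reached 2-fold once divided by all peaks within 1 Mb, where they were at 0.63, 0.47 and -0.67. None of the 3 reached it either when scaled to peaks near genes (0.95, 0.98 and -0.93), with entries set to 1, at 5% or more mitochondrial UMIs, or with a pseudocount of 10 CPM. The share of peak counts near genes was 65.8% in the A549-like group and 54.9% to 63.8% in the others. Within 1 Mb of ETV4 and DUSP4, all other peaks together stood at 0.67 and 0.48 in the A549-like group. The DUSP6 peak in the SLC30A8 group lay just inside the threshold at -0.96, and passed it at -1.08 once divided by that region. Gene copy number was not measured.

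**Figure D4:**
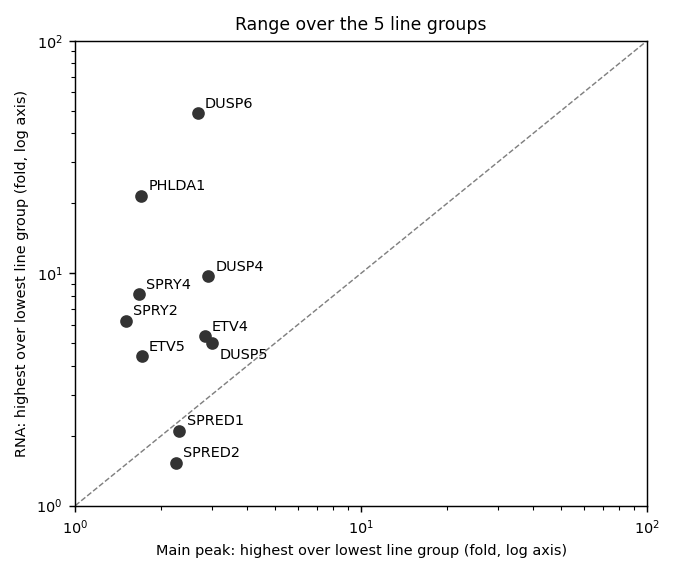
Highest over lowest level among the 5 line groups for RNA (vertical) against the main peak (horizontal) of each gene, both as folds on log axes, with equal folds on the dashed line. RNA spans 1.53-fold (SPRED2) to 48.8-fold (DUSP6), and main peaks 1.5-fold (SPRY2) to 3.01-fold (DUSP5).

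Of the 37 peaks, 33 had at least 100 counts, and of these 7 were higher and 1 lower in the A549-like group, beside 8.14% and 21.9% of the 40303 measured peaks near genes and 8.08% and 28.7% of all 112406 measured peaks. In the S100A9 group 1 was higher and 4 were lower, beside 10.5% and 10.6% near genes and 12.7% and 12.4% of all. In the SLC30A8 group 0 were higher and 6 were lower, beside 7.65% and 21.6% near genes and 8.1% and 26.1% of all. In the HCC827-like group 2 were higher and 2 were lower, beside 8.15% and 14.6% near genes and 9.46% and 16.9% of all. In the DHRS2 group 0 were higher and 2 were lower, beside 7.73% and 8.73% near genes and 11.1% and 8.23% of all. The peaks higher in the A549-like group made up a larger share of the 33 than of either background. All of them lay at DUSP4, SPRY4, SPRED2 or ETV4, and SPRED2 alone gave 11 of the 33 peaks. At DUSP4 and ETV4 all other peaks within 1 Mb together were also raised in that group, at 0.48 and 0.67. With a pseudocount of 10 CPM, 1 peak was higher in the A549-like group. Of 10 main peaks, 7 were highest in the A549-like group, with no count over the main peaks of other genes to set beside it.

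Some peaks away from the main 1 differed more. At ETV4, the peak chr17:43530255-43531130 was at 4.67 in the A549-like group and 30.7 (27.6 to 34.1) in the S100A9 group. By contrast, chr17:43544218-43544960 was at 24.8 (22.0 to 27.8) in the A549-like group against a mean of 6.61 in the others. The S100A9 group was next at this second peak, at 11.9 (10.0 to 14.1), with the remaining groups at 3.67 to 5.95. At SPRED2, chr2:65382574-65383484 was at 36.2 (30.2 to 43.0) in the HCC827-like group against a mean of 11.9 in the others, and at 4.46 in the SLC30A8 group. At SPRY4, chr5:142325652-142326485 was at 37.1 in the A549-like group against a mean of 14.98, and at 8.05 in the SLC30A8 group against a mean of 22.2. The S100A9 group was next at that SPRY4 peak, at 22.5 (19.9 to 25.4), with the HCC827-like group at 14.2 and the DHRS2 group at 15.2.

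Other genes of the pathway were counted from 3 lists. Their counts are to be read against the shares of all genes given above, which ran from 5.41% to 12.5% for higher and from 11.3% to 20.0% for lower. Of 19 measured ERK targets outside the set, 1 was higher and 3 lower in the A549-like group, beside 11.3% and 15.9% of all genes. The numbers were 7 and 2 in the S100A9 group (8.69% and 17.4%) and 1 and 10 in the SLC30A8 group (12.5% and 20.0%). They were 1 and 5 in the HCC827-like group (6.73% and 18.4%) and 1 and 1 in the DHRS2 group (5.41% and 11.3%). IER3, an early response gene, was at 415 CPM in the S100A9 group against a mean of 90.6, and ETV1, a relative of ETV4 and ETV5, at 131 against 29.1. In the SLC30A8 group SPRY1 was at 0.559 CPM, the level of 3 UMIs, against a mean of 16.7. The EGFR inhibitor ERRFI1 was at 50.1 against 217. The phosphatase DUSP2 was higher in the SLC30A8 group, at 22.3 CPM against a mean of 1.77 in the others. The 10 genes and the outside targets both had their most higher calls in the S100A9 group and their most lower calls in the SLC30A8 group. Over all genes the SLC30A8 group also had the largest share of lower calls, 20.0%. The list was chosen with earlier results of these data known and was read in the same barcodes, so this likeness is a description.

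Of 8 ligands of EGFR and its relatives, 7 were lower and 0 higher in the SLC30A8 group, beside 20.0% and 12.5% of all genes. Their median log2 ratio in that group was -3.37. In the HCC827-like group 4 were higher and 2 lower, beside 6.73% and 18.4%, with a median of 0.33. EREG was at 381 CPM and AREG at 307 CPM in that group. In the S100A9 group 3 were higher and 1 lower, beside 8.69% and 17.4%, and the median of 0.98 was the highest of any group. The A549-like group had 1 higher and 2 lower, beside 11.3% and 15.9%, with a median of -0.74. The DHRS2 group had 1 higher and 1 lower, beside 5.41% and 11.3%, with a median of -0.31. NRG1, a ligand of ERBB3 and ERBB4, was at 817 CPM in the A549-like group. Of 34 genes of the cascade itself, 5 were higher and 6 lower in the SLC30A8 group, near the shares of all genes (12.5% and 20.0%). In the HCC827-like group 4 of the 34 were higher and 6 lower, beside 6.73% and 18.4% of all genes. EGFR was at 7700 CPM in that group against a mean of 530 in the others. Of the 10 feedback genes, 0 were higher in the HCC827-like group beside 6.73% of all genes and 5 were lower beside 18.4%. SPRY2 passed as higher with TMM scaling (1.04) and in both mitochondrial classes (1.04 and 1.05).

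**Figure D5:**
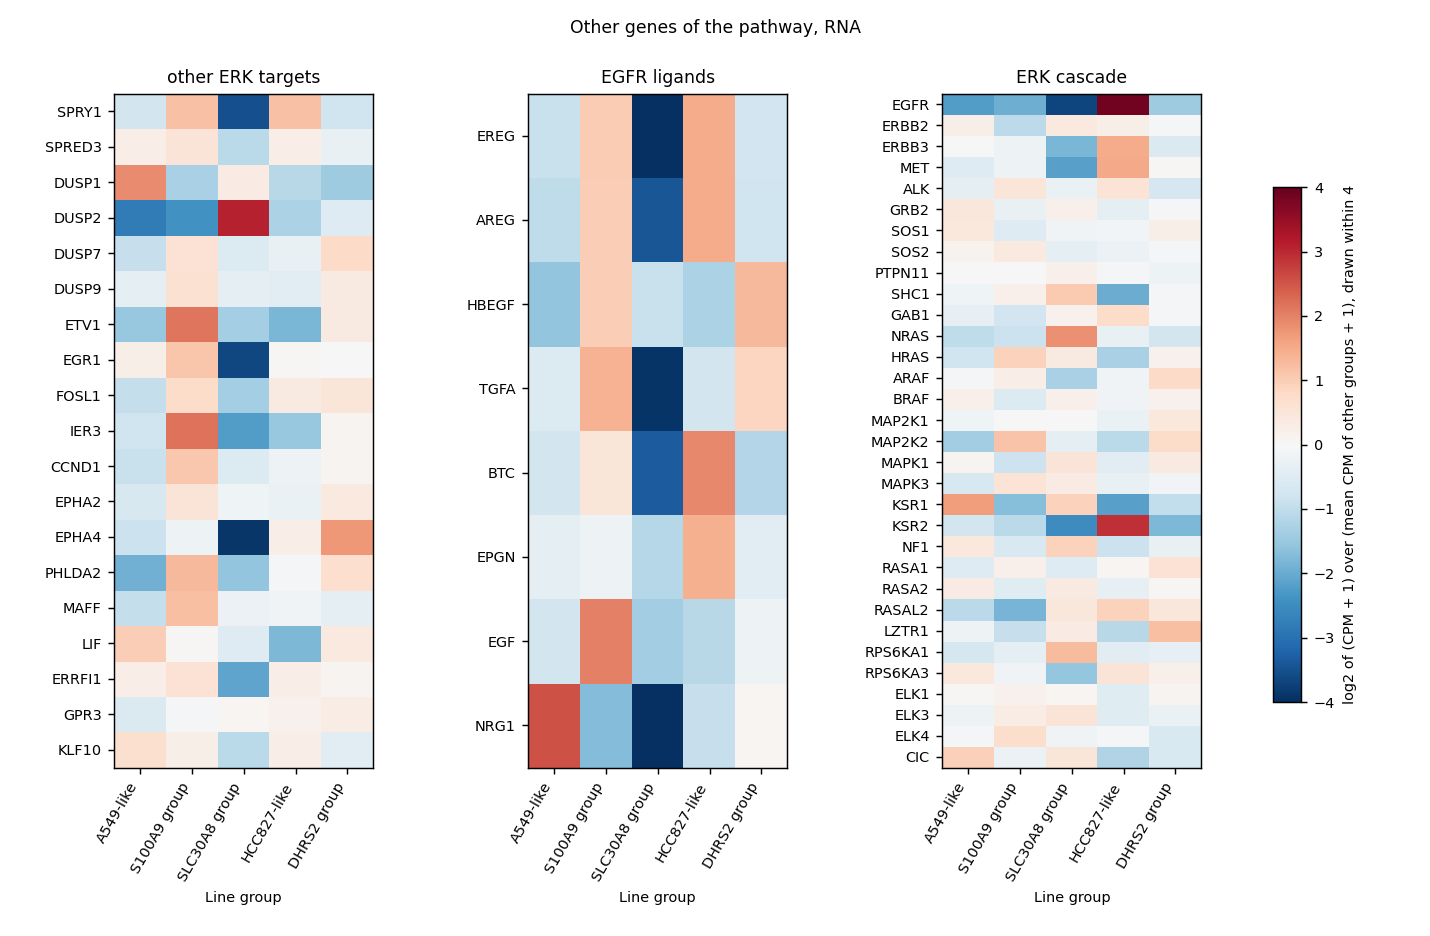
Log2 ratio of each line group to the mean of the other 4 for measured genes of the 3 pathway lists, with colours drawn within 4 of 0. EGFR ligands are low in the SLC30A8 group, with a median of -3.37, and IER3 and ETV1 are high in the S100A9 group.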

How the data were processed

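The authors deposited 1 joint matrix of whole-number counts per gene and per peak, with Cell Ranger ARC 2.0.0 and the build GRCh38 named in the submitters' processing notes. Positions in the deposited feature list are the authors' and were used as other values, not as measurements. For the aligner settings, annotation release and peak calling, the sources used here give nothing. Columns of unmapped samples numbered 0.

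Barcodes with at least 1000 UMIs, 500 genes and 1000 peak counts and at most 20% mitochondrial UMIs were kept (scanpy 1.11.5), 494 of 3298 being left out. The highest Scrublet scores, 63 barcodes, were removed. Its automatic threshold called 1 doublet. A barcode joined the group whose marker score was at least 2 times the next. Counts were summed per group and given as CPM of the group total. Ratios used a pseudocount of 1 CPM. Most nonzero peak entries were even (83.3%), so peak intervals were computed on counts divided by 2. TMM factors came from edgeR 4.0.16. The ratio and grouping steps were tested on simulated data.

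All 10 genes are named, with each gene's main peak, its 2 most similar genes, and up to 4 pathway genes per list and group by the size of the ratio to the nearest other group. The values of 2 genes of the cascade list are not reported here. Members, markers and lists were chosen with earlier results of these data known.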

Additional observations from a re-analysis of the deposited data

How the results depend on the processing

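Among the RNA and main peak ratios of the 10 genes, none past 2-fold changed its direction under the alternatives run. Single ratios of the other peaks and of the pathway genes were not rerun. Of the 22 gene and group pairs past 2-fold in RNA, 22 stayed so under TMM scaling, with doublets kept, with a stricter marker score, without the mitochondrial limit and with mitochondrial UMIs left out of totals. The number was 21 with ATAC clusters, 20 with RNA clusters, 19 against the median of the other groups and 11 with a pseudocount of 10 CPM. It was 21 with only barcodes under 2% mitochondrial UMIs and 17 with only those at 5% or more. TMM moved the median of all genes by -0.16, 0.12, -0.11, 0.18 and -0.02 in the A549-like, S100A9, SLC30A8, HCC827-like and DHRS2 groups. The mitochondrial splits, the totals without mitochondrial UMIs and the scaling to peaks near genes were chosen after seeing the data. No paired analysis was possible because there is 1 library of each kind. The causes of these shifts were not tested.

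Counts of the 10 genes past the threshold moved by over 1.5 times as follows. Genes lower in the A549-like group numbered 2 with ATAC clusters, TMM scaling or a threshold of 1.5-fold. Genes higher in the S100A9 group numbered 8 at 1.5-fold. Genes lower in the SLC30A8 group numbered 3 with a pseudocount of 10 CPM. Genes higher in the HCC827-like group numbered 1 with TMM scaling, in either mitochondrial class and at 1.5-fold, and genes lower there numbered 3 at 5% mitochondrial UMIs or more and 1 with a pseudocount of 10 CPM. Genes lower in the DHRS2 group numbered 0 with ATAC clusters, against the median of the other groups, at 5% mitochondrial UMIs or more and with a pseudocount of 10 CPM, 3 with RNA clusters and under 2% mitochondrial UMIs, and 2 at 1.5-fold and with a marker score at least 3 times the next.

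Peak counts moved more. With ATAC clusters 1 peak was higher in the SLC30A8 group, and 2, 2 and 1 were lower in the A549-like, S100A9 and DHRS2 groups. With RNA clusters 1, 1 and 4 were lower in the S100A9, HCC827-like and DHRS2 groups. With TMM scaling 12 were higher in the A549-like group and 4 lower in the DHRS2 group. Divided by the region within 1 Mb, 2, 1 and 0 were lower in the A549-like, HCC827-like and DHRS2 groups. With doublets kept 1 was higher in the SLC30A8 group and 1 lower in the DHRS2 group. With entries set to 1, 0 were lower in the DHRS2 group. Against the median of the other groups 2 and 3 were higher in the S100A9 and SLC30A8 groups, and 1, 1 and 0 lower in the S100A9, HCC827-like and DHRS2 groups. Without the mitochondrial limit 1 was higher in the SLC30A8 group, and 2 and 0 lower in the S100A9 and DHRS2 groups. Under 2% mitochondrial UMIs 2, 1 and 4 were higher in the S100A9, SLC30A8 and HCC827-like groups, and 2, 5 and 4 lower in the A549-like, HCC827-like and DHRS2 groups. At 5% or more 1 and 4 were higher in the SLC30A8 and HCC827-like groups, and 2, 2 and 10 lower in the A549-like, S100A9 and SLC30A8 groups. With a pseudocount of 10 CPM 1 and 1 were higher in the A549-like and HCC827-like groups, 1 was lower in the SLC30A8 group and 0 in the other 4. Scaled to peaks near genes, 2 and 10 were lower in the A549-like and SLC30A8 groups. At 1.5-fold 16, 2, 3 and 5 were higher in the A549-like, S100A9, SLC30A8 and HCC827-like groups, and 2, 8, 13, 7 and 7 lower in the A549-like, S100A9, SLC30A8, HCC827-like and DHRS2 groups. With a marker score at least 3 times the next 1 was higher in the SLC30A8 group. With a window of 10 kb 12, 6 and 1 were higher in the A549-like, S100A9 and SLC30A8 groups, and 5, 10, 9 and 5 lower in the A549-like, SLC30A8, HCC827-like and DHRS2 groups.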
